A study of Rattus norvegicus with 16 samples.

Results

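The 10 circadian clock genes described here are Clock, Npas2, Per1, Per2, Per3, Cry1, Cry2, Nr1d1, Nr1d2 and Dbp, taken by name as core clock and clock output genes. All 10 were among the 33294 genes of the count table and among the 17856 that passed the filter on low counts. They were measured by poly(A) RNA sequencing of rat tissue labelled as central amygdala, an output nucleus of the amygdala, in 16 offspring that had been exposed around birth to the synthetic opioid fentanyl or to saline. The groups were 6 fentanyl males, 2 fentanyl females, 6 saline males and 2 saline females. Tissue came from adult animals 1 day after their last session of a procedure that the labels give only as IVSA, so every animal of both exposures had been through it. Strain, dose, litter, exact age and hour of collection are not in the labels. With litters unknown, p-values measure only the spread between these 16 animals.

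The circadian clock is a feedback loop of transcription that runs in most cells, and in the central amygdala the period genes are known to cycle over the day. Clock, or its forebrain relative Npas2, pairs with Bmal1 to activate genes through E-box sequences, among them the Per, Cry and Nr1d genes and Dbp. The Per and Cry proteins then repress that pair, and the Nr1d proteins (Rev-erb alpha and beta) repress Bmal1, Npas2 and Cry1 through ROR elements. In rodents, transcripts of Per1, Per2, Per3, Nr1d1, Nr1d2 and Dbp form a first set. They therefore peak in another part of the day than those of Bmal1, Npas2, Cry1 and, where it cycles, Clock, the second set. The first set is low when Bmal1 and Npas2 are high. Per1 and Per2 are also induced by neuronal activity and Per1 by glucocorticoids. Differences in the hour of collection would be expected to push the first set and Bmal1 or Npas2 in opposite directions between animals. For Cry1 and Clock that expectation is less firm.

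Promoter windows are printed for the 5 members that passed the test between 2 sets of saline males, because these members were higher together there. Each window runs from 250 bases before to 50 bases after a transcription start in RefSeq (GRCr8, a newer build than the rn7 used for counting), 5′ to 3′ on the gene's strand. Of the members and Bmal1, 10 genes had a window; Cry1 is the remaining one. Capitals mark matches on either strand to the E-box CACGTG, the E-prime box CACGTT, the D-box TTATGNAA or the ROR half-site AGGTCA. The Per2 window is chr9:99496944-99497243 on the minus strand, that of Cry2 is chr3:98860388-98860687 (minus), those of Nr1d1 are chr10:84231763-84232062 and chr10:84229405-84229704 (minus), that of Dbp is chr1:105312006-105312305 (plus) and that of Npas2 is chr9:48959315-48959614 (plus).
Per2: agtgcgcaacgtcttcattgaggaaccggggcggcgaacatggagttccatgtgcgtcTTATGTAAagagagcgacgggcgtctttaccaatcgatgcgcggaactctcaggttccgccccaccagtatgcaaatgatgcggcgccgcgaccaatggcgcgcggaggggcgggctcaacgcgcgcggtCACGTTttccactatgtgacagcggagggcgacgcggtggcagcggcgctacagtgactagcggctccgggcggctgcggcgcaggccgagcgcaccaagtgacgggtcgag
Cry2: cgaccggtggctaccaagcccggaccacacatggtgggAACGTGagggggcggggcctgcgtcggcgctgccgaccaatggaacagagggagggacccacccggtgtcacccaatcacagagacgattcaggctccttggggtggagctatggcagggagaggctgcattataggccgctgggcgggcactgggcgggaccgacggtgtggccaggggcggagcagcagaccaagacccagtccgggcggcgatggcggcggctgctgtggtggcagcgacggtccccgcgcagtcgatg
Nr1d1, upstream start: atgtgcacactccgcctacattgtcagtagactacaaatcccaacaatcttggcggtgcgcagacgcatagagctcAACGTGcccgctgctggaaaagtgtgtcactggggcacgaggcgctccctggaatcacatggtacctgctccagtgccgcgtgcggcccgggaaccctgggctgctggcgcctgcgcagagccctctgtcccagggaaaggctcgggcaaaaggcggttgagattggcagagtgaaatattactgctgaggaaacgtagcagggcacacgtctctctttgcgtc
Nr1d1, downstream start: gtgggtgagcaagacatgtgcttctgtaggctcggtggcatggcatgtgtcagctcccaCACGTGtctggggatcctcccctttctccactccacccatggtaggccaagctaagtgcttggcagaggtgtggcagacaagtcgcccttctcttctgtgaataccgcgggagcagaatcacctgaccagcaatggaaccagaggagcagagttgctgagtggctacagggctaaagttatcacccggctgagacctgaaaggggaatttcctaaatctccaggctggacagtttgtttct
Dbp: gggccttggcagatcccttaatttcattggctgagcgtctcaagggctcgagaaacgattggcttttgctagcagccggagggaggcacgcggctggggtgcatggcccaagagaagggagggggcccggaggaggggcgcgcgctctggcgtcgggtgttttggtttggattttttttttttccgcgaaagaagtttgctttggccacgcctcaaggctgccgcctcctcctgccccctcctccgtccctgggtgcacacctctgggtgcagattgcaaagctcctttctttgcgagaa
Npas2: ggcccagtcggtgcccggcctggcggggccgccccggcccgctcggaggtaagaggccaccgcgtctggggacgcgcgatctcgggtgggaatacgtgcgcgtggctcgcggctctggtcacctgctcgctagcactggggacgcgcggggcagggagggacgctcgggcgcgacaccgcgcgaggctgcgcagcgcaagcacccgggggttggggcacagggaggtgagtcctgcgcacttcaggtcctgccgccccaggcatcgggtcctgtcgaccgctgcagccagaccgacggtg

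Counting from 1 at the 5′ end of each window, Per2 held a D-box at positions 59 to 66 and an E-prime box at 189 to 194. The upstream Nr1d1 window held an E-prime box in reverse orientation (AACGTG) at 77 to 82, and the downstream one an E-box at 60 to 65. Cry2 held an E-prime box, also as AACGTG, at 39 to 44. The Dbp and Npas2 windows matched none of the 4 motifs, nor did those of Clock, Per1 and Per3. A ROR half-site stood in the windows of Nr1d2 and of Bmal1, which are not printed. No 2 of these matches overlapped. Among 33469 rat windows of the same length, 6.42% held the E-box, 4.83% the E-prime box, 3.66% the D-box and 16.2% the ROR half-site, so the matches are a description of these letters and not of binding.

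The lowest count of any member in a library was 338, for Cry1. Library totals ran from 12879701 in fentanyl male replicate 5 to 22426428 in saline male replicate 3. Levels are given in CPM, a gene's share of its library's counts after TMM scaling. They compare libraries for 1 gene and not 1 gene with another, since they are not divided by transcript length. Central amygdala markers summed to between 1428 and 3080 CPM in the fentanyl libraries and between 745.0 and 2352 CPM in the saline libraries. Of 10 listed markers, 9 were in the table under those names and tested. Their mean log2 CPM, in which each marker counts equally, was 4.345 ± 0.327 in fentanyl and 4.253 ± 0.626 in saline libraries (SD). It ran from 3.876 to 4.91 in fentanyl and from 3.722 to 5.459 in saline libraries. The sums depend more on the most abundant markers, so they are not read as central amygdala content. Markers of striatal medium spiny neurons ranged from 5908 to 13430 CPM in fentanyl and from 2563 to 10440 CPM in saline libraries. Myelin markers ranged from 8258 to 35200 CPM in fentanyl and from 7462 to 33830 CPM in saline libraries. The levels of these markers of tissue make-up thus differed between libraries. Of 6 markers of the suprachiasmatic nucleus and hypothalamus, 3 passed the filter, and together they summed to at most 6.50 CPM in any library.

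Between the 16 libraries, Dbp, an output gene that encodes a PAR bZIP transcription factor, varied most of the 10 members and Nr1d2 least. The standard deviation of log2 CPM was 0.36 for Dbp, 0.34 for Per2, 0.31 for Nr1d1, 0.29 for Npas2, 0.24 for Per3, 0.21 for Per1, 0.20 for Cry1, 0.17 for Clock and Cry2, and 0.14 for Nr1d2. The median over all genes tested was 0.30. The highest library stood 2.41-fold above the lowest for Per2, 2.33-fold for Dbp, 2.24-fold for Npas2 and 1.37-fold for Nr1d2. Among the 1000 genes nearest in level, the spread of Dbp lay at percentile 84.6, that of Per2 at 83.9 and that of Nr1d2 at 25.5.

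Setting 8 fentanyl offspring against 8 saline offspring addressed whether perinatal exposure left clock transcripts at another level in adulthood. None of the 10 members passed the test (adjusted p under 0.05, edgeR quasi-likelihood with sex as a term, Benjamini-Hochberg over every gene tested). Over all genes 14 passed, or 0.0784%. By DESeq2 and by limma voom the count of members was 0 as well, where 0.488% and 5.77% of all genes passed. At an unadjusted p under 0.05 it was 1, Per3, by edgeR and by DESeq2, where 7.27% of all genes fell under that value by edgeR. By limma voom it was 3, Clock, Npas2 and Per1, with unadjusted p-values of 0.0131, 0.0108 and 0.0253. By that method 4636 of all 17856 genes had an unadjusted p under 0.05. The log2 fold changes, fentanyl over saline, were above 0 for 7 members and below 0 for 3, with a median of 0.04 against -0.01 over all genes. No member separated the 8 fentanyl from the 8 saline libraries without overlap, which 0.101% of all genes did.

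The activators came first. Clock, a histone acetyltransferase and DNA-binding partner of Bmal1, had a lowest, median and highest level of 76.5, 91.9 and 102 CPM in the fentanyl libraries, against 72.5, 84.5 and 103 CPM in the saline libraries. Npas2, which takes the place of Clock in forebrain neurons, had 93.4, 108 and 139 CPM in fentanyl libraries, against 62.1, 98.6 and 128 CPM in saline libraries. The ranges overlapped for both, and the 2 highest Npas2 levels were those of the fentanyl females. The log2 fold change was 0.10 ± 0.09 for Clock and 0.18 ± 0.13 for Npas2 (SE throughout). Bmal1, which the table lists as Arntl, had 20.3, 29.5 and 32.0 CPM in fentanyl and 18.8, 25.7 and 36.7 CPM in saline libraries, with a log2 fold change of 0.10 ± 0.13.

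Among the repressors, Per3 had the smallest p of the 10 members. It had 61.7, 83.5 and 100.3 CPM in the fentanyl libraries, against 76.5, 101 and 111 CPM in the saline libraries (lowest, median and highest), a log2 fold change of -0.23 ± 0.11 (unadjusted p = 0.0434, adjusted p = 0.679 by edgeR). Per2, a period protein that holds the repressor complex together, had 41.2, 54.1 and 69.7 CPM in the fentanyl libraries, against 45.9, 53.6 and 99.2 CPM in the saline libraries. The medians of Per2 were nearly equal, and the saline range was wider because saline males 1 and 2, named by their library numbers, stood above every other library. Its log2 fold change was -0.19 ± 0.16. Per1 averaged 100 ± 17.5 CPM in fentanyl and 106 ± 12.4 CPM in saline libraries (SD, n = 8 each; log2 fold change -0.08 ± 0.10). The cryptochromes Cry1 and Cry2, which bind and silence the activator pair, had log2 fold changes of 0.05 ± 0.10 and 0.07 ± 0.09.

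In the second loop and the output, the differences were small against their errors. Nr1d1 averaged 46.3 ± 8.27 CPM in fentanyl and 45.8 ± 10.8 CPM in saline libraries (SD, n = 8 each), and its log2 fold change was 0.01 ± 0.15. In mammals the end of Nr1d1 overlaps Thra on the other strand, and the strand setting of the counting is not given, so its reads may not be fully told apart from those of Thra. Nr1d2 had a log2 fold change of 0.03 ± 0.08. Dbp had 133, 172 and 276 CPM in fentanyl libraries, against 118, 154 and 237 CPM in saline libraries (lowest, median and highest), a log2 fold change of 0.14 ± 0.17. Adjusted p-values of the 10 members lay between 0.679 and 0.990 by edgeR.

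**Figure D1:**
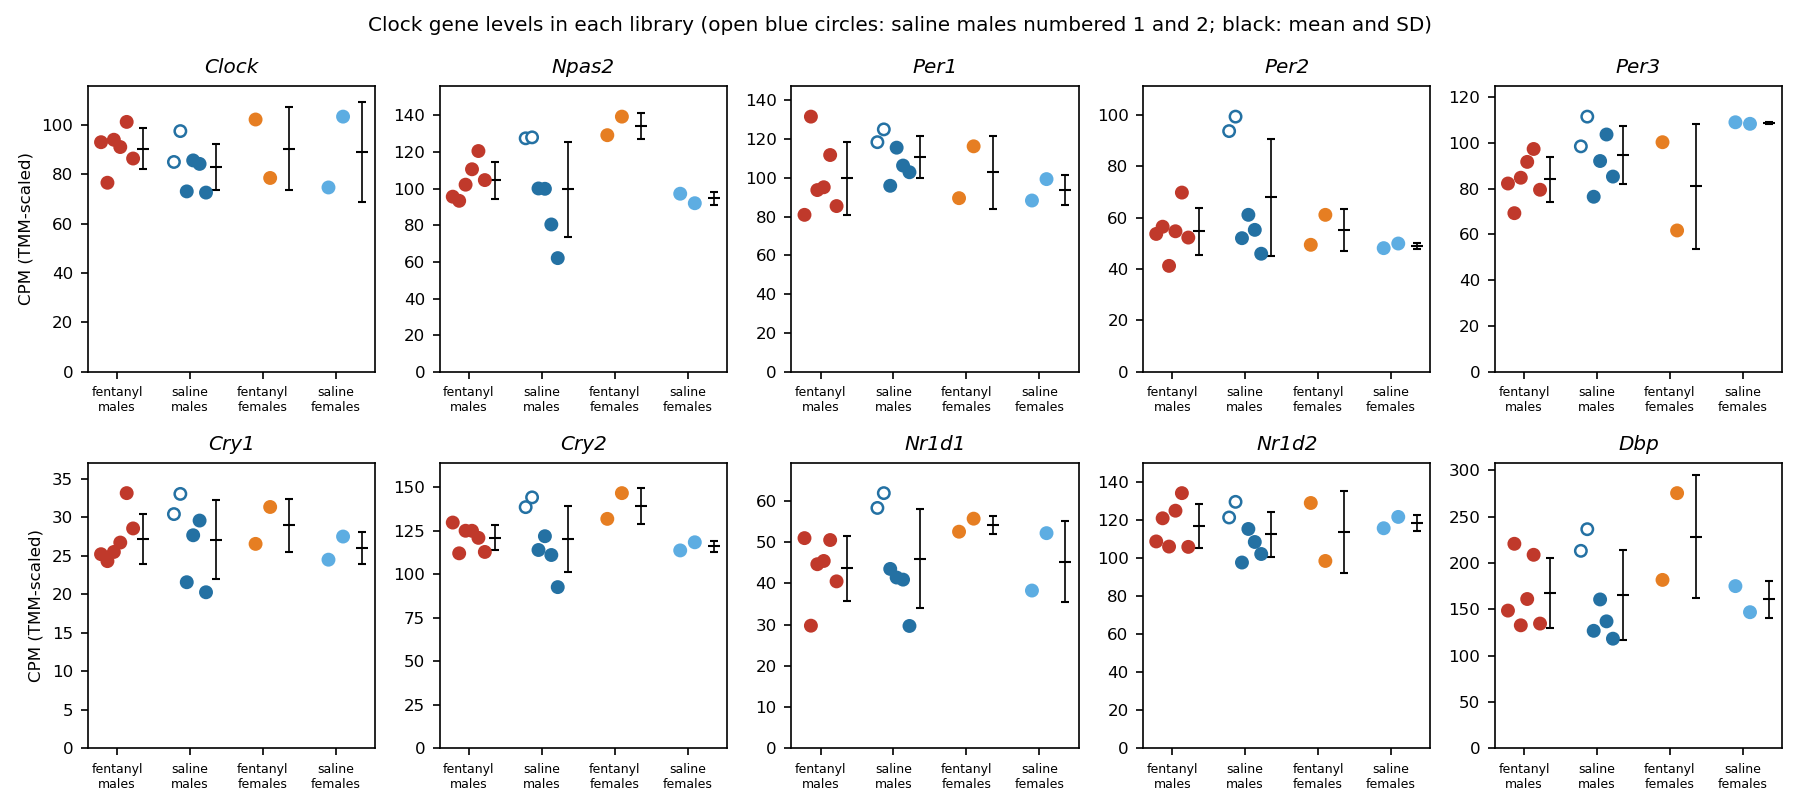
CPM (vertical axis) of each of the 10 members by group of exposure and sex, with 1 point per library, black marks for the mean and SD, and open circles for saline males 1 and 2. The fentanyl and saline libraries overlap for every member, and the 2 open circles of Per2, at 93.6 and 99.2 CPM, lie above all other libraries.

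In males alone, 6 against 6, no member passed by edgeR, and none had an unadjusted p under 0.05; over all genes 0.0392% passed. Per2 had the largest difference of the members, averaging 54.6 ± 9.14 CPM (SD, n = 6) in fentanyl males against 67.8 ± 22.8 CPM (SD, n = 6) in saline males, with a log2 fold change of -0.31 ± 0.18. In the 4 females, where the males' spread entered the fit, no member passed either, none had an unadjusted p under 0.05, and 0.0% of all genes passed. Npas2 had 129 and 139 CPM in fentanyl females, against 97.3 and 92.1 CPM in saline females, a log2 fold change of 0.50 ± 0.25 (adjusted p = 0.363 by edgeR). Dbp had 182 and 276 CPM in fentanyl females, against 175 and 147 CPM in saline females (0.51 ± 0.33). Per3 had 100.3 and 61.7 CPM in fentanyl females, against 109 and 108 CPM in saline females (-0.42 ± 0.21, adjusted p = 0.362). For Npas2, Per3, Cry2, Nr1d1 and Dbp the female groups did not overlap, as was so for 48.8% of all genes at this group size. Library numbers are 1 and 2 in the fentanyl females and 10 and 11 in the saline females, so exposure and number cannot be told apart there. In males they are 1 to 6 after fentanyl, against 1, 2 and 9 to 12 after saline. Only saline males 1 and 2 share numbers with fentanyl libraries. Exposure and number are therefore also largely mixed in males and over both sexes.

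The male effect minus the female effect did not pass for any member (unadjusted p under 0.05 for 0 members; 0.0% of all genes passed by edgeR). It was -0.49 ± 0.38 for Dbp, -0.48 ± 0.36 for Per2, -0.44 ± 0.29 for Npas2 and 0.26 ± 0.24 for Per3 on the log2 scale. Females against males, with exposure as a term, gave no member past the test and none with an unadjusted p under 0.05, where 0.056% of all genes passed. The differences, female minus male, lay between -0.22 ± 0.19 for Per2 and 0.21 ± 0.19 for Dbp. DESeq2 and limma voom called no member in males, in females, between their effects or between the sexes. Over all genes, DESeq2 called 43 of 17847, 20 of 16809, 4 of 17847 and 11 of 17845 in these comparisons. Limma voom called 87, 0, 0 and 15 of 17856.

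A larger difference stood within the saline males. The labels number these libraries 1, 2 and 9 to 12 and do not say what the numbers stand for. Saline males 1 and 2 had higher levels than saline males 9 to 12 in 5 of 10 members that passed the test: Per2, Dbp, Nr1d1, Npas2 and Cry2. All 10 fold changes were above 0, with a median of 0.36 on the log2 scale against -0.01 over all genes. The background was high, since 17.9% of all genes passed in either direction and 8.27% were called higher. DESeq2 and limma voom also called 5 members, where 21.4% and 32.1% of all genes passed. At an unadjusted p under 0.05 there were 6 of 10 members, against 31.6% of all genes.

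Per2 had 93.6 and 99.2 CPM in saline males 1 and 2, against 52.0, 61.1, 55.2 and 45.9 CPM in saline males 9 to 12. The 2 sets were far apart, with a log2 fold change of 0.85 ± 0.16 (adjusted p = 0.00367 by edgeR). Dbp had 213 and 237 CPM in saline males 1 and 2, against 127, 161, 137 and 118 CPM in 9 to 12, a log2 fold change of 0.73 ± 0.21 (adjusted p = 0.0285). Nr1d1, the Rev-erb alpha gene, had 58.3 and 61.9 CPM in saline males 1 and 2, against 43.5, 41.4, 40.9 and 29.7 CPM in 9 to 12 (0.63 ± 0.19, adjusted p = 0.0334). These 3 genes belong to the E-box set that peaks together in rodents, and in none of them did the number sets overlap.

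Of Bmal1, Npas2, Cry1 and Clock, the set counted here as the opposite phase, Npas2 alone passed by edgeR. It had 128 and 128 CPM in saline males 1 and 2, against 100.1, 99.9, 80.5 and 62.1 CPM in 9 to 12, a log2 fold change of 0.58 ± 0.16 (adjusted p = 0.0210 by edgeR). Bmal1 had 34.0 and 36.7 CPM in saline males 1 and 2, against 29.9, 26.0, 25.4 and 18.8 CPM in 9 to 12, with 0.49 ± 0.18 on the log2 scale and no call by edgeR (adjusted p = 0.0656). It was called by limma voom (adjusted p = 0.00616), and by edgeR without fentanyl male replicate 2 (adjusted p = 0.0184) or saline male replicate 3 (adjusted p = 0.0248). Over all genes, 32.1% passed by limma voom. By edgeR 4229 of 17855 passed without fentanyl male replicate 2, and 22.8% without saline male replicate 3. Cry2, whose transcript cycles little in many rodent tissues, had 139 and 144 CPM in saline males 1 and 2, against 114, 122, 111 and 92.7 CPM in 9 to 12 (0.36 ± 0.11, adjusted p = 0.0335). Cry1 (0.36 ± 0.16), Nr1d2 (0.24 ± 0.13), Per3 (0.23 ± 0.17), Clock (0.21 ± 0.15) and Per1 (0.21 ± 0.17) did not pass. The sets did not overlap for 8 of 10 members, all but Clock and Per3, and for 44.8% of all genes.

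The 2 number sets also differed in the levels of markers of tissue make-up. Striatal markers summed to between 8025 and 10440 CPM in saline males 1 and 2, against 2563 to 4406 CPM in saline males 9 to 12, and myelin markers to between 7462 and 10060 CPM, against 11650 to 33830 CPM. The mean log2 CPM of cortical and basolateral glutamatergic markers ran from 0.87 to 1.03 in saline males 1 and 2. In 9 to 12 it ran from 1.39 to 3.79, with the highest value in saline male replicate 3 and 1.86 in replicate 4. This list was not used as a covariate. In bulk tissue, fewer cells of a type and less RNA per cell cannot be told apart. With the means of the striatal and myelin markers as covariates, a fit chosen after seeing the data, no member passed between the number sets (adjusted p under 0.05 for 0.0056% of all genes). The log2 fold change was then 0.00 ± 0.21 for Per2, -0.02 ± 0.26 for Npas2 and -0.29 ± 0.31 for Dbp. Without the covariates these errors were 0.16, 0.16 and 0.21. The striatal list mean ran from 8.61 to 9.02 in saline males 1 and 2, against 7.09 to 7.83 in 9 to 12. The sets did not overlap in this covariate, so the fit cannot separate number set from tissue make-up. The counts also depended on single libraries. Leaving out saline male replicate 1 or 2 sets 1 library against 4, and the lone library is assumed to vary like the other groups. The count of members past the test by edgeR was 0 without saline male replicate 2 (number 2), where 1.09% of all genes passed, and 1 without replicate 1, where 6.92% passed. It was 1 without replicate 5 (12.4% of all genes) and 2 without replicate 6 (10.7%). Per2 then had an adjusted p of 0.0622 without saline male replicate 2 and 0.0229 without replicate 1 by edgeR, with log2 fold changes of 0.81 and 0.90.

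**Figure D2:**
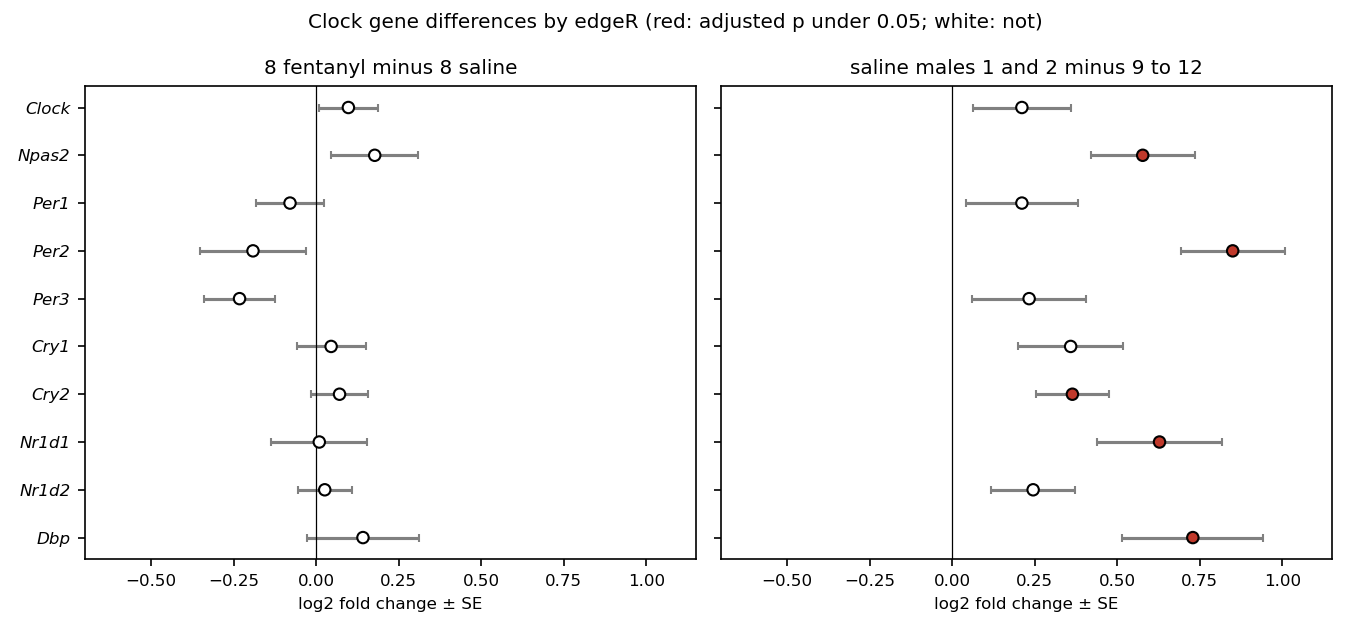
Log2 fold changes with SE of the members for fentanyl over saline (8 against 8) and for saline males 1 and 2 over saline males 9 to 12 (2 against 4); red marks adjusted p under 0.05. All exposure values lie between -0.23 and 0.18, and all number set values lie above 0, up to 0.85 for Per2.

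The exposure difference of Per2 depended on which saline males it was set against. Fentanyl males had 41.2 to 69.7 CPM, below saline males 1 and 2 (93.6 and 99.2 CPM) and overlapping saline males 9 to 12 (45.9 to 61.1 CPM). Without saline males 9 to 12, Per2 was lower in fentanyl males by a log2 fold change of -0.82 ± 0.15 (adjusted p = 0.0166 by edgeR; 5.47% of all genes passed). Without saline males 1 and 2 its log2 fold change was 0.08 ± 0.10 over both sexes and 0.04 in males. With the means of the striatal and myelin markers as covariates, Per2 was lower after fentanyl by -0.49 ± 0.07 on the log2 scale (adjusted p = 0.0128), the only member past the test, where 0.0728% of all genes passed. With 3 surrogate variables in their place, Per2 (-0.33 ± 0.06, adjusted p = 0.00879) and Per3 (-0.26 ± 0.06, adjusted p = 0.0253) passed by edgeR, where 1.98% of all genes passed. The striatal list mean itself was 8.60 ± 0.38 in fentanyl and 7.97 ± 0.66 in saline libraries (SD, n = 8 each). It ran from 8.21 to 9.34 in fentanyl and from 7.09 to 9.02 in saline libraries. Exposure and this covariate are thus partly mixed, and the covariate fits cannot fully separate them.

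In a fit with the covariates but without saline males 1 and 2, added after seeing the data, Per2 had a log2 fold change of -0.51 ± 0.14, against 0.08 in the same libraries without the covariates, and no call (unadjusted p = 0.00311, adjusted p = 1.00 by edgeR). With the covariates and without saline males 9 to 12 it had -0.51 ± 0.09 (adjusted p = 0.158), also without a call. Per3 had -0.14 ± 0.20 and -0.42 ± 0.14 in these 2 fits. With the covariates in all 16 libraries, the exposure differences of Clock, Cry1, Cry2, Nr1d1, Nr1d2 and Dbp lay below 0, the other side from the fit without them, and none of these passed.

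Antiphase genes had correlations above 0 across the libraries more often than below 0. Over the 16 libraries, 41 of the 45 member pairs had a Pearson r of log2 CPM above 0, and the median r was 0.47; of all pairs of tested genes, 49.9% had an r above 0. The 18 pairs that join Per1, Per2, Per3, Nr1d1, Nr1d2 or Dbp to Clock, Npas2 or Cry1 are called antiphase here. Those with Clock or Cry1 are so called more loosely. Of the 18 pairs, 16 had an r above 0, with a median of 0.48. The 2 exceptions were Clock with Per1 (r = -0.13) and Npas2 with Per3 (r = -0.03). After Benjamini-Hochberg adjustment over the 45 pairs of 100000 permutations each, two-sided, 16 pairs passed with r above 0 and 0 with r below 0. The lowest r among these 16 was 0.62, which 6.16% of all gene pairs reached. Unadjusted, these were 20 and 0 pairs. By Spearman's rho 8 passed above 0 and 0 below.

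Npas2 and Nr1d1, whose protein represses Npas2, had the highest r of the antiphase pairs at 0.77 (rho = 0.70, permutation adjusted p = 0.00690 and 0.0294). Npas2 and Dbp had r = 0.73 (rho = 0.61, permutation adjusted p = 0.0100 and 0.0618), and Per2 with Cry1 had r = 0.68 (rho = 0.73, permutation adjusted p = 0.0175 and 0.0287). Without the 2 libraries farthest from the median of the first gene, these r were 0.64, 0.59 and 0.64. The highest r of all was that of Npas2 with Cry2, at 0.89 (rho = 0.80, permutation adjusted p = 0.00045 and 0.00765), followed by Cry2 with Nr1d1 at 0.87. Among genes of the same phase, Per2 with Dbp had r = 0.67, Per1 with Per2 0.64, Per1 with Dbp 0.63 and Per3 with Nr1d2 0.62, while Per1 with Nr1d1 had 0.02 and Per3 with Dbp -0.11.

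Within the exposures, the median r was lower in the fentanyl than in the saline libraries, a difference that was not tested. In the 8 fentanyl libraries the median r was 0.16, 11 of 45 pairs were below 0, and no pair passed by exact permutation (5 at an unadjusted p under 0.05, all above 0). In the 8 saline libraries all 45 pairs had r above 0 (median 0.74), and 13 passed by exact permutation. These 8 libraries include both number sets of saline males. The shares of all gene pairs are given only for the 16 libraries, so these counts have no background within an exposure. In the fentanyl libraries Clock with Per1 had r = -0.56 and Clock with Dbp -0.42, against 0.50 and 0.49 in the saline libraries, and 3 of the 18 antiphase pairs were below 0, against 0 in the saline libraries. Without saline males 1 and 2, 15 of the 18 antiphase pairs had r above 0 and 2 of the 45 pairs passed. Leaving out 1 library gave 4 pairs without saline male replicate 2, 7 without saline male replicate 6 and at most 22 without fentanyl female replicate 2, with 1 to 3 antiphase pairs below 0.

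**Figure D3:**
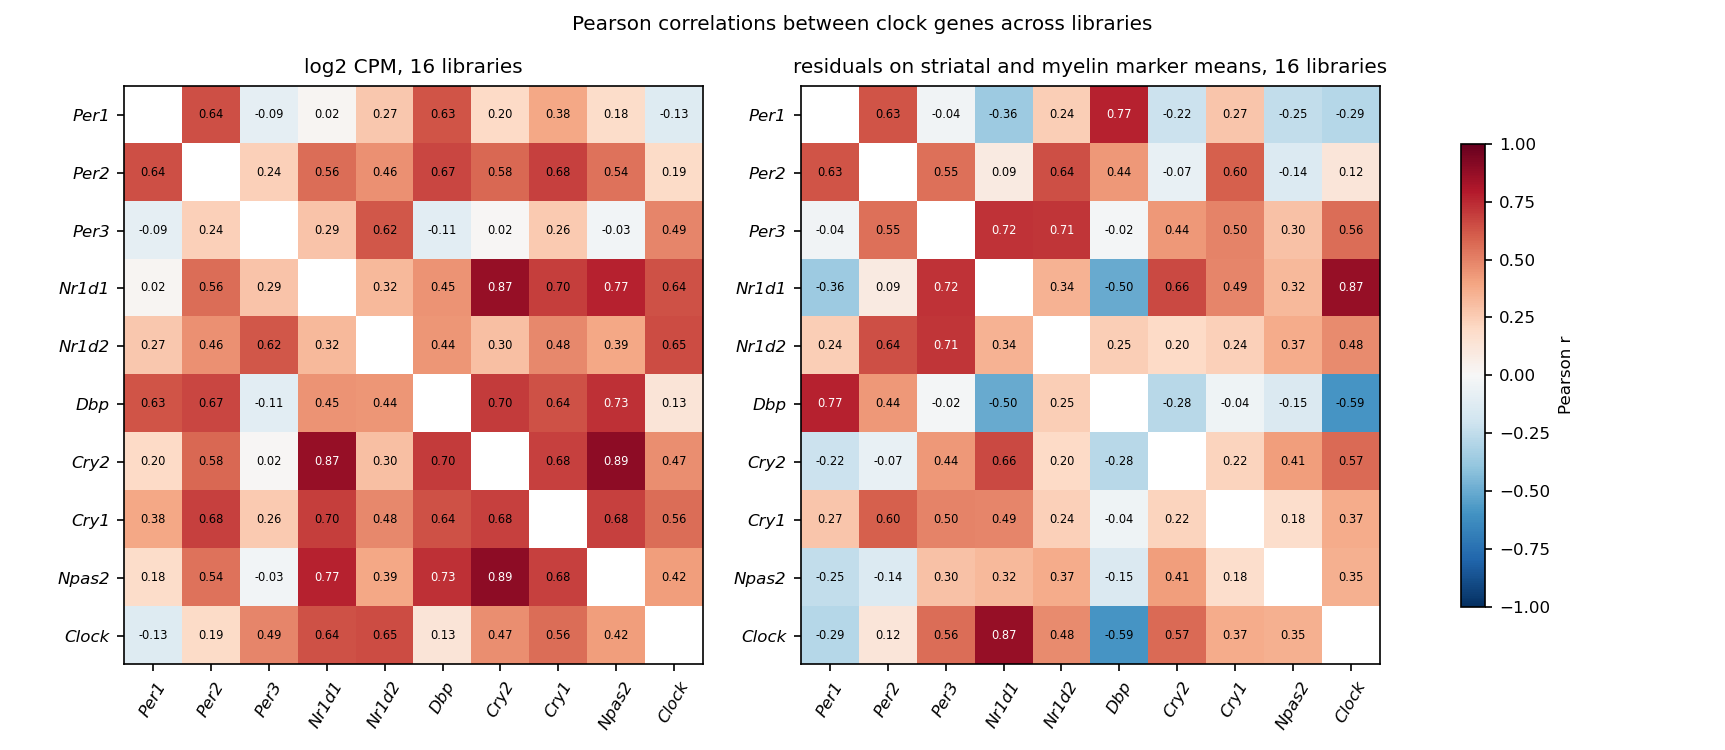
Pearson r (colour) between the 10 members over the 16 libraries, for log2 CPM and for residuals after a linear fit on the striatal and myelin list means. Most cells are above 0 before the fit, and 13 of the 45 member pairs are below 0 after it.

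With the parts of each gene that follow the striatal and myelin list means taken out, the pattern between antiphase genes was mixed. Of the 18 antiphase pairs 6 then had r below 0 and 12 above, and 6 of all 45 pairs passed by permutation, all above 0. Clock with Dbp had r = -0.59 and Npas2 with Dbp -0.15, while Clock with Nr1d1 had 0.87 and Clock with Per3 0.56. The same-phase pair Per1 with Dbp had 0.77, and the same-phase pair Nr1d1 with Dbp -0.50. Unadjusted, 12 pairs above 0 and 2 below 0 had a permutation p under 0.05.

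Bmal1, the partner that all of these loops act on, was compared in the same way with each of the 10 members. It had r = 0.81 with Nr1d1 (rho = 0.65), its repressor, and 0.74 with both Npas2 and Cry2, 0.63 with Cry1 and 0.57 with Per2. These 5 passed a permutation test adjusted over the 10 relations (p = 0.00300 for Nr1d1 and 0.0426 for Per2). By Spearman's rho 2 of them passed, Npas2 and Nr1d1 (permutation adjusted p = 0.0411 each), and Cry2 (0.0519), Cry1 (0.0677) and Per2 (0.151) did not. An r with Bmal1 as high as that of Per2 was reached by 15.7% of all genes tested. Without saline males 1 and 2 the r of Bmal1 with Per2 was 0.28. It had r = 0.29 with Dbp and -0.03 with Per1, neither past the test. Within the exposures the Bmal1 and Per1 correlation was -0.66 in the fentanyl libraries and 0.67 in the saline libraries, and that of Bmal1 and Dbp was -0.35 and 0.70. Without the 2 libraries farthest from the median of Bmal1, r with Nr1d1 was 0.60.

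A balance of the 2 phases was formed for each library as the mean centred log2 CPM of Per1, Per2, Per3, Nr1d1, Nr1d2 and Dbp, minus that of Clock, Npas2, Cry1 and Bmal1. It is given without a test. Each gene was centred over the 16 libraries, so the means of 2 groups of 8 mirror each other around 0 by construction. The balance was -0.08 ± 0.14 in the fentanyl libraries and 0.08 ± 0.08 in the saline libraries (SD, n = 8 each). It lay below 0 in 7 of 8 fentanyl libraries, all but fentanyl male replicate 2 at 0.20, and above 0 in 7 of 8 saline libraries, all but saline male replicate 3 at -0.07. In 10 of the 16 libraries both means lay on the same side of 0, and their r over the libraries was 0.73. Saline males 1 and 2 were high in both, at 0.31 and 0.42 for the Per, Nr1d and Dbp mean and 0.19 and 0.30 for the mean of the opposite phase. Saline male replicate 6 was low in both, at -0.28 and -0.49. The labels give no hour of collection, so the part of clock time in these values was not tested.

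**Figure D4:**
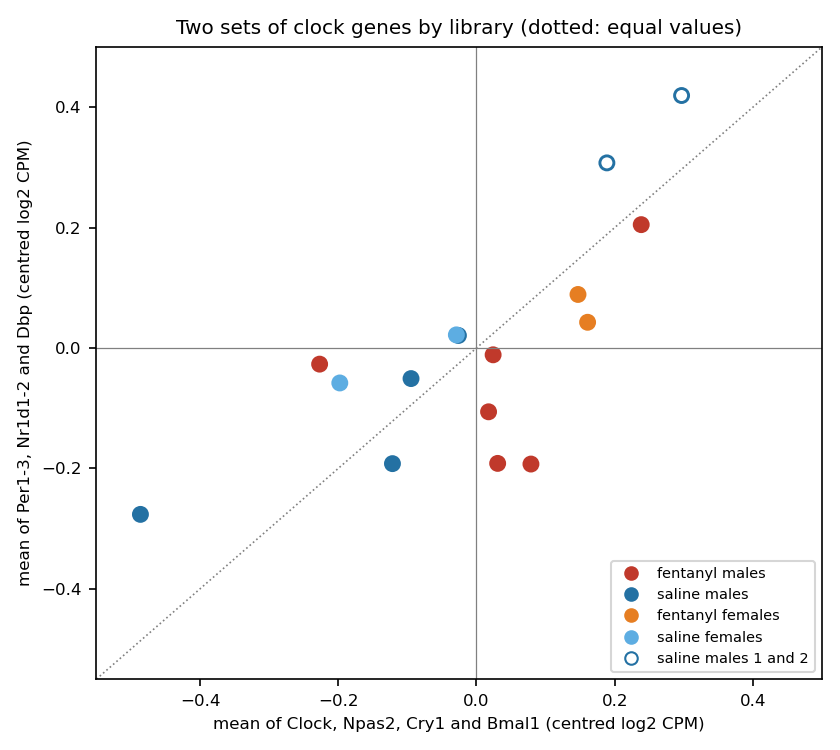
Mean centred log2 CPM of the Per, Nr1d and Dbp genes (vertical axis) against that of Clock, Npas2, Cry1 and Bmal1 (horizontal axis), 1 point per library and coloured by exposure. Values were centred over the 16 libraries, so the exposure means mirror each other. The points run from low in both to high in both, with the balance below 0 in 7 of 8 fentanyl libraries and above 0 in 7 of 8 saline libraries.

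Several members correlated with markers of tissue make-up. With the mean log2 CPM of 13 striatal markers, Dbp had r = 0.85 (rho = 0.84, permutation adjusted p = 0.0003 and 0.0016 over 10 relations), Npas2 0.82, Cry2 0.79, Cry1 0.76 and Nr1d1 0.62, which were the 5 members past the test. An r as high as that of Nr1d1 was reached by 10.4% of all genes tested. Per3 had r = -0.06 and Per1 0.27. With the mean of 12 myelin markers, Cry2 had r = -0.80, Npas2 -0.77, Nr1d1 -0.71, Per2 -0.66 and Dbp -0.61, again 5 members past the test, and 13.0% of all genes had an r as low as that of Dbp. By Spearman's rho Per2 and Dbp did not pass with the myelin mean (permutation adjusted p = 0.0795 each). Clock had r = -0.03 and Nr1d2 0.03. Without the 2 libraries farthest on the marker mean, r was 0.82 for Dbp with the striatal mean and -0.70 for Cry2 with the myelin mean, but 0.50 for Cry1 with the striatal and -0.35 for Dbp with the myelin mean, so the last 2 relations were weaker without these libraries.

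**Figure D5:**
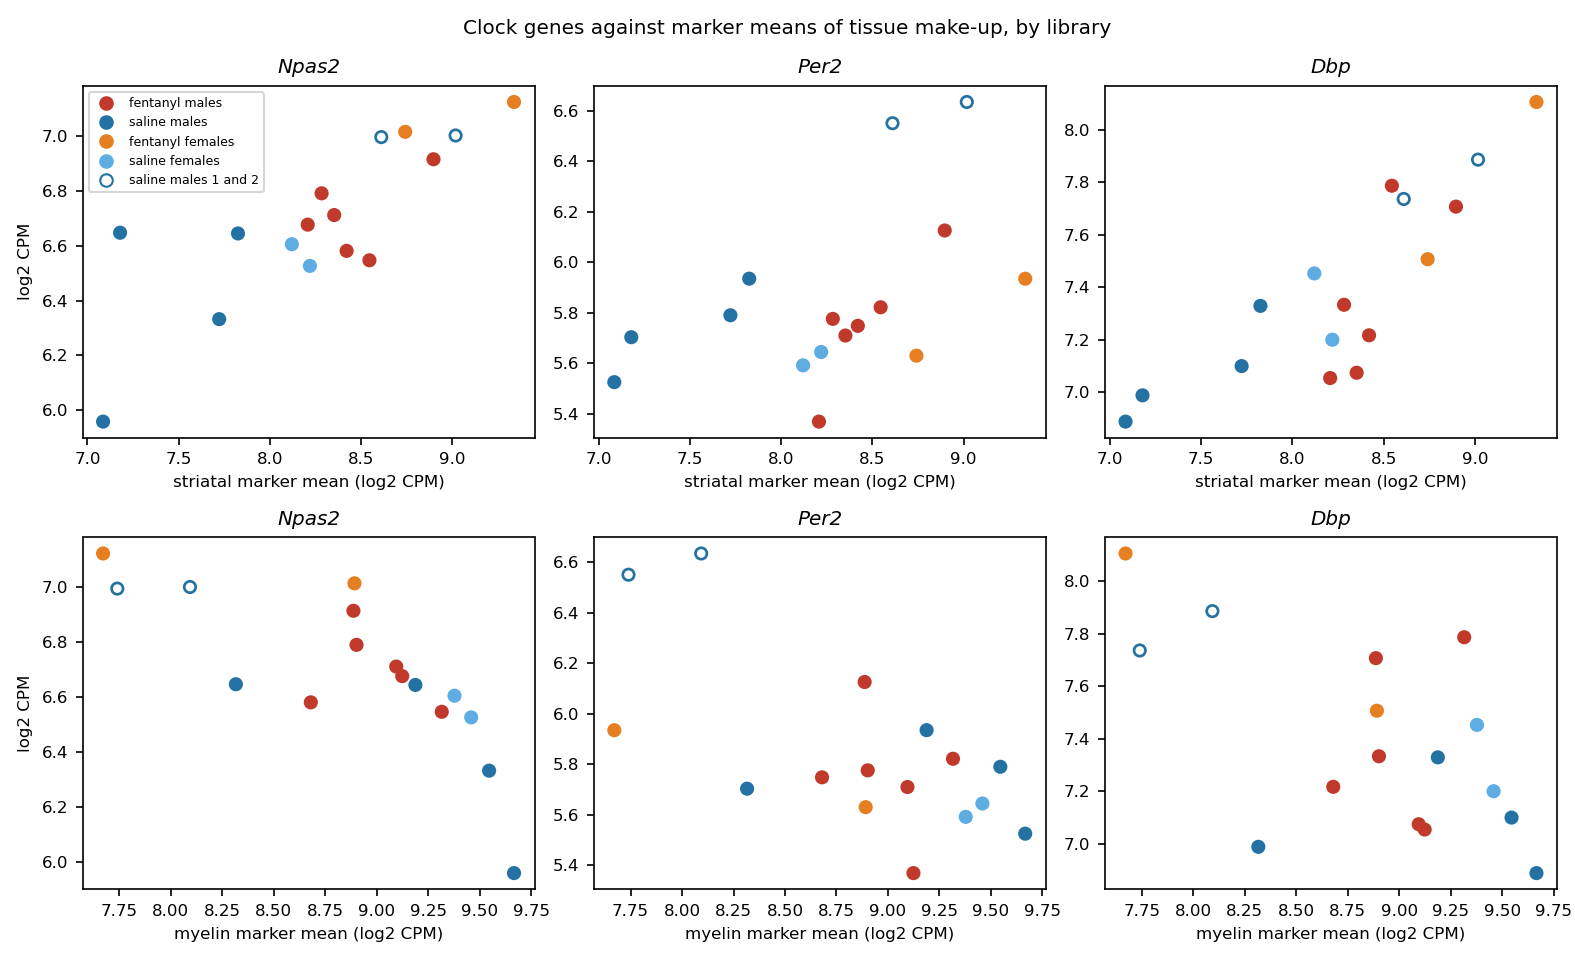
Log2 CPM of Npas2, Per2 and Dbp in each library against the mean log2 CPM of striatal markers and of myelin markers, coloured by exposure. Dbp and Npas2 are higher where the striatal mean is higher (r = 0.85 and 0.82), and Npas2 is lower where the myelin mean is higher (r = -0.77). For Dbp with the myelin mean r is -0.61, and -0.35 without the 2 farthest libraries.

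Per2 correlated with the immediate early genes, which neuronal activity induces. With the mean log2 CPM of 12 of them Per2 had r = 0.82 (rho = 0.70, permutation adjusted p = 0.00048 and 0.0145 over 4 relations), with 0.85 in the fentanyl libraries and 0.86 in the saline libraries. Without saline males 1 and 2 this r was 0.57. The share of all genes with an r this high was not obtained, so these relations have no background. Per1 had r = 0.49 (permutation adjusted p = 0.104). The mean of the list was 4.73 ± 0.31 in saline males 1 and 2 (SD, n = 2) and 3.57 ± 0.57 in saline males 9 to 12 (SD, n = 4), and 3.81 ± 0.22 in the fentanyl and 3.81 ± 0.70 in the saline libraries (SD, n = 8 each). With the mean of 10 glucocorticoid-responsive genes, Per1 had r = 0.24 and Per2 -0.42, neither past the test. Within exposures the r of Per1 was 0.83 in the fentanyl libraries and -0.29 in the saline libraries, and this difference was not tested. The part of neuronal activity or tissue make-up in the differences of Per2 was not tested.

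The genes whose profiles over the 16 libraries were most like each member were sought among the 11400 genes that averaged 5 CPM or more, as a description. For Per2 these were Slc25a25, a mitochondrial ATP-Mg carrier (r = 0.90), Nr4a1, an immediate early nuclear receptor (0.88), and Has3, a hyaluronan synthase (0.87). For Per1 they included Mrpl44 (0.81) and Dusp1, an inducible MAP kinase phosphatase (0.78), and for Per3 they were Spopl (0.91), G2e3 and Ccne2. For Nr1d1 they were Slit3, an axon guidance ligand (0.98), Kalrn, a guanine nucleotide exchange factor of synapses (0.97), and Peak1 (0.96), and for Dbp Cbr3 (0.95), Dnajc2 (0.95) and Irak1bp1 (0.94). Npas2 was most like Erlin1, Itpka, a neuronal inositol trisphosphate kinase, and Tmem132a (0.95 to 0.96). Cry2 was most like Senp2 (0.96), Syt6 (0.95) and Cipc (0.95), a Clock-interacting repressor, and Cry1 like Synpo2, Cux1 and Mtcl1 (0.85 to 0.86). Clock was most like Ptgfrn, Map3k13 and Syne1 (0.89 each), and Nr1d2 like Rc3h2 (0.88), Usp33 (0.86) and Pik3c2a (0.84). No other member of the 10 was among these genes.

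Of 29 other genes of the clock and its outputs, 28 were tested, Bmal1 among them. Between the exposures none passed by edgeR, where 0.0784% of all genes did, and 2 had an unadjusted p under 0.05, against 7.27% of all genes. DESeq2 also called 0 of them, while limma voom called 2, Tef (adjusted p = 0.0410) and Hlf (adjusted p = 0.0436), where 5.77% of all genes passed. The smallest p among those above 0 belonged to Hlf, a PAR bZIP relative of Dbp (log2 fold change 0.43 ± 0.18, adjusted p = 0.645), and Usp2, a clock-controlled deubiquitinase (0.33 ± 0.14). Below 0 they belonged to Arntl2, a relative of Bmal1 (-0.88 ± 0.45), and Nampt, an enzyme of NAD synthesis (-0.13 ± 0.08). Arntl2 had low counts, from 4 to 106 per library, with medians of 0.54 CPM in fentanyl and 0.78 CPM in saline libraries. Its highest level, 4.45 CPM, was that of a library among saline males 9 to 12, whose median was 1.01 CPM.

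Between the saline number sets, 8 of the 28 passed by edgeR, 7 higher and 1 lower in saline males 1 and 2, against 17.9% of all genes. DESeq2 called 9, where 21.4% of all genes passed, and limma voom 15, where 32.1% passed. The PAR bZIP genes Hlf (0.88 ± 0.20) and Tef (0.72 ± 0.15) were higher, as was Dbp, so all 3 genes of that family were higher in these libraries. Wee1, a cell cycle kinase under clock control (0.95 ± 0.14), Ciart, a circadian repressor (0.99 ± 0.25), Usp2 (0.66 ± 0.17), Bhlhe41, an E-box repressor (0.50 ± 0.11), and Cipc (0.36 ± 0.10) were also higher. Timeless, a replication fork protein with a debated part in the mammalian clock, was lower (-1.64 ± 0.45). The median of the 28 was 0.23 on the log2 scale, against -0.01 over all genes, and 13 had an unadjusted p under 0.05, against 31.6% of all genes. With the striatal and myelin covariates 0 of the 28 passed (adjusted p of 0.976 or more by edgeR). The log2 fold changes were then -0.21 ± 0.19 for Hlf, -0.18 ± 0.36 for Ciart and -0.05 ± 0.23 for Usp2. They were 0.12 ± 0.24 for Tef, 0.25 ± 0.21 for Wee1 and 0.29 ± 0.68 for Timeless.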

How the data were processed

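Poly(A) RNA libraries of 16 rats were analysed from whole-number read counts per gene, deposited by the authors without normalization, 1 column per library. The submitters' processing notes name Trimmomatic, STAR, HTSeq and DESeq2 and the build rn7. Versions, annotation and strand setting: not given in the sources used here. Samples were grouped by exposure and sex from the labels. Each library counted as 1 sample, since no pair of the 120 agreed within sampling noise (chi-square per gene at least 3.84). Of 33294 genes, 5345 had no count.

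The members and all gene lists, covariates and library-number sets were chosen with earlier results of these data known. Every member is named. From the other clock genes, Bmal1, all that passed, and otherwise 2 per direction by smallest p are named, and for likeness the 3 genes with the highest r, without provisional symbols; 1 gene that this rule would name is not reported here.

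Counts were tested with edgeR 4.0.16 (R 4.3.3) by a quasi-likelihood fit with robust estimation and TMM factors, after filterByExpr on the 4 groups (minimum 0.603 CPM), with Benjamini-Hochberg adjustment over all 17856 genes and a threshold of 0.05. The comparisons over both exposures and of the sexes had exposure and sex as terms; those within a sex and their difference were contrasts of the 4 groups, and the number sets were a contrast of 5 groups. Standard errors were derived from the fold change and its F statistic, whose root is their ratio. Correlations used log2 CPM with a prior count of 2 and two-sided permutations (100000, or all 40320 orders for 8 libraries), adjusted over 45 pairs, or over 10 or 4 relations with Bmal1 and list means. Summed levels cover tested markers.

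Alternatives were RLE factors, no filter, DESeq2 1.42.0, limma voom with quality weights (limma 3.58.1), no sex term, surrogate variables (sva 3.50.0), covariates, a replicate block, 1 sex alone, subsets of saline males and each library left out. The steps were tested on simulated counts. Promoter windows were searched for motifs by their letters. Raw reads were not used here.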

Additional observations from a re-analysis of the deposited data

How the results depend on the processing

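The exposure count of 0 members past the test was 1 with the striatal and myelin covariates and 2 with surrogate variables, and that in males was 1 without saline males 9 to 12. RLE factors, no filter, no sex term, DESeq2, limma voom and leaving out 1 library kept it at 0. The cause was not tested. The covariates gave log2 fold changes of -0.028 for Clock, -0.18 for Cry1, -0.026 for Cry2, -0.14 for Nr1d1, -0.12 for Nr1d2 and -0.19 for Dbp, and surrogate variables -0.026 for Cry1 and Nr1d2, -0.031 for Nr1d1 and -0.049 for Dbp, all on the other side of 0. So were Per2 without saline males 1 and 2 (0.077; 0.037 in males), and, without 9 to 12, Clock (-0.0025; -0.018 in males), Cry1 (-0.076), Cry2 (-0.037), Nr1d1 (-0.19), Nr1d2 (-0.089), Dbp (-0.069) and Bmal1, listed as Arntl (-0.045). With the covariates and without saline males 1 and 2 they were Cry1 (-0.37), Cry2 (-0.017), Nr1d1 (-0.10), Nr1d2 (-0.011) and Dbp (-0.36), and without 9 to 12 Clock (-0.048), Cry1 (-0.13), Cry2 (-1.6e-05), Nr1d1 (-0.13), Nr1d2 (-0.17), Dbp (-0.21) and Arntl (-0.0039). Leaving out 1 library moved the exposure value of Nr1d1 between -0.057 and 0.092, of Nr1d2 between -0.0078 and 0.067 and of Cry1 between -0.0031 and 0.10, and the sex difference of the Per3 effect between -0.052 and 0.65.

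Between the number sets, the count of 5 was 0 with the covariates and 0 to 5 with 1 library left out, and Npas2 (-0.018), Per1 (-0.29), Cry1 (-0.33), Cry2 (-0.0045) and Dbp (-0.29) then lay below 0 with the covariates. Standard errors of those covariate values ran from 0.19 for Cry2 to 0.31 for Dbp. Antiphase pairs with r below 0 numbered 1 on centred values, in males and without the 2 farthest libraries, 6 on residuals, 0 in saline libraries and 1 to 3 with 1 library left out. Pairs past the test numbered 6 on residuals, 0 in fentanyl libraries, 26 in males, 2 without saline males 1 and 2 and 4 to 22 with 1 library left out. Clock with Per1 had r = 0.50 in saline libraries. Npas2 with Per2 (-0.14) and with Dbp (-0.15) lay below 0 on residuals. Per3 with Dbp had 0.065 centred, 0.62 in saline libraries, 0.33 in males and -0.26 to 0.29 with 1 library left out.

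With the replicate number as a block, 0 members passed between the exposures, in males, in females or between their effects. Deviations of samples with the same replicate number correlated between -0.172 and 0.209 over 8 pairs, 2 of them over 0.1. With 2 libraries per female group, both female pairs give the same value, -0.172, by construction. The replicate numbers were not taken to pair the samples. They differ from the library numbers in saline male replicates 3 to 6 and in the saline females. Pairing by library number was not tested. Between the exposures, the count over all genes was 7 with the block and 14 without it.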
